A study of Mus musculus with 14 samples.

Results

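The enzymes of heme synthesis were followed in the liver of Snell dwarf mice and wild type mice at 2 ages. All probe sets whose symbol in the array annotation was Alas1, Alas2, Alad, Uros, Urod, Cpox, Ppox or Fech were taken. These were 11 of the 12488 probe sets on the array, at least 1 for each of the 8 genes, among 8252 genes that the annotation names by a single symbol. Of the 11, 9 passed the filter on low signal and were tested, with every gene represented, among 7227 tested probe sets in all. Urod and Ppox each have a further probe set that did not pass it. Cpox has a pair of tested probe sets, and each is reported by itself. The names of 6 of the 11 end in s, r or i, by which Affymetrix marks probe sets that may match several transcripts or were built from fewer or less strictly chosen probes.

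Heme is built from glycine and succinyl-CoA in a pathway that starts and ends in the mitochondrion and passes through the cytosol between. The first step, the making of 5-aminolevulinate, limits the rate and has an enzyme from either of a pair of genes: Alas1, which all cells use and which the liver regulates strongly, and Alas2, which serves hemoglobin production in developing red cells. The liver is the largest user of heme outside the erythroid lineage, chiefly for cytochrome P450 enzymes, and it represses Alas1 when heme is plentiful. Snell dwarf mice carry a mutation of Pit-1, a pituitary transcription factor without which growth hormone, thyroid-stimulating hormone and prolactin are lacking. A liver signal of Pit-1 itself would not check the genotype, since the gene acts in the pituitary.

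Liver RNA of 14 mice was used, 1 mouse per array. There were 3 dwarf mice (animals 3, 4 and 8) and 3 wild type mice (1, 2 and 24) at 22 months, and 4 dwarf mice (83, 85, 87 and 89) and 4 wild type mice (82, 84, 86 and 88) at 6 months. The labels describe the dwarf mice as long-lived Pit-1 (Snell) mutants and the wild type mice as their controls. Strain background, sex, feeding state and time of day of tissue collection were not given in the sources used here. The mice are separate animals with their own numbers, and no number recurs between groups.

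Signals are on the linear MAS5 scale of the array software. They describe each probe set across mice and cannot be set against the signals of another probe set. The array medians ran from 166.8 to 221.05, and the number of arrays limits the precision. Hepatocyte markers marked the tissue as liver: 11 of 14 listed genes were on the array and none was at the floor of 54.9 on all arrays of a group. Some markers of other cells differed between the genotypes at 6 months. Of 6 tested endothelial markers 3 rose (Kdr, Ramp2 and Stab1) and of 5 lymphocyte markers 2 rose (Cd79b and Jchain). Of 11 hepatocyte markers 4 rose (Alb, Apoa1, Apoa2 and Cps1) and 1 fell (Fgb), while of 11 Kupffer cell markers none passed in limma. Of all tested probe sets 13.3% passed at 6 months. At 22 months 1 Kupffer cell marker, Clec4f, fell and no other of these passed, beside 2.93% of all tested probe sets. All 11 tested Kupffer cell markers nevertheless had negative log2 fold changes at 22 months, with a median of -0.66 beside 0.01 over all tested probe sets, and all 11 were negative in the difference between the ages (median -0.63). Their part in the results was not tested. A pair of quality measures went with the groups. The 18S ribosomal RNA signal was 211 to 436 in 22-month dwarf livers and 184 to 1147 in 22-month wild type livers, against 53.0 to 138 in 6-month dwarf livers and 45.8 to 163 in 6-month wild type livers. The actin 3′ to 5′ signal ratio, which rises as RNA shortens from its 5′ end, was 1.25 to 1.57 in 22-month dwarf livers, 1.52 to 1.74 in 22-month wild type livers, 2.29 to 2.69 in 6-month dwarf livers and 1.16 to 2.38 in 6-month wild type livers. The 18S ranges of the ages do not overlap, so a change with age and this difference between the arrays cannot be told apart.

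The pair of genes for the first enzyme differ in the sequence before their transcription start, and these are shown because the results turn on this pair. RefSeq start sites on GRCm38.p6 give the 250 bases upstream of Alas1 at chr9:106247955-106248204 on the minus strand and of Alas2 at chrX:150547167-150547416 on the plus strand. Both are printed 5′ to 3′ as transcribed. Capitals mark GATAA, the core recognised by GATA factors, and CCACCC, a core bound by factors of the Krüppel-like family, on either strand.
Alas1: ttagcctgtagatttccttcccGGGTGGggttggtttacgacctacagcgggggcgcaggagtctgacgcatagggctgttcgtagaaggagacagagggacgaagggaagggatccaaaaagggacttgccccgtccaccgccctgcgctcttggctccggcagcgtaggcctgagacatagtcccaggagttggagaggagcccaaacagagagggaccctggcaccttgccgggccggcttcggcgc
Alas2: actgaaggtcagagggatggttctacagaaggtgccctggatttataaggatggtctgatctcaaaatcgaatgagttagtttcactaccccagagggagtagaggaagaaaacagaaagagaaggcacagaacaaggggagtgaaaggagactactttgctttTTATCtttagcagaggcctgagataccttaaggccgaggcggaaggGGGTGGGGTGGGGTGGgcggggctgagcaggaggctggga
The Alas2 window held 1 GATAA, read as TTATC, at 86 bases before the start, and 3 overlapping CCACCC, read as GGGTGG, at 40, 35 and 30 bases before it. The Alas1 window held no GATAA and 1 CCACCC, at 228 bases before the start. Over the full RefSeq windows, which run 50 bases past the start, GC content was 65.3% for this Alas1 start and 52.3% for Alas2, beside a median of 52.7% over 32851 windows. These Alas1 and Alas2 windows held 27 and 6 CpG dinucleotides. GATAA occurred in 25.4% of all windows and CCACCC in 31.5%, on either strand. A match to letters is a description of the window.

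Alas2 was the member that differed between the genotypes. It was read by its only probe set, whose name ends in s. Matches of that probe set to other transcripts were not tested. At 6 months its signal was 693, 792, 525 and 400.1 in the dwarf livers (animals 83, 85, 87 and 89), against 3016, 3011, 2985 and 4084 in the wild type livers (82, 84, 86 and 88). The highest dwarf value lay far below the lowest wild type value, and 3 of the 4 wild type mice were nearly identical. The mean was 602 ± 174 in dwarf livers and 3274 ± 540.2 in wild type livers (SD, n = 4 each). Alas2 fell 5.57-fold, with a log2 fold change of -2.48 ± 0.20 (standard error; 95% interval -2.91 to -2.04) and an adjusted p of 7.72e-07 by limma with Benjamini-Hochberg adjustment over the 7227 tested probe sets. Of all tested probe sets 13.3% passed in this comparison, 6.95% as lower. Alas2 stood 22nd by p and 35th from the most lowered by fold change. The call was kept in all 27 alternative settings tried, in which the log2 fold change ran from -2.67 to -2.30.

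At 22 months the Alas2 difference was smaller. Its signal was 1705, 1442.5 and 1396 in dwarf livers (animals 3, 4 and 8), against 1792, 2916 and 2234 in wild type livers (1, 2 and 24). The groups still did not overlap, but the highest dwarf and lowest wild type values were close. The log2 fold change of -0.59 ± 0.24 (95% interval -1.09 to -0.09) did not pass in limma, with an adjusted p of 0.274. The change in the genotype effect between the ages was tested directly: the 22-month effect minus the 6-month effect was 1.89 ± 0.31 on the log2 scale (95% interval 1.22 to 2.55, limma adjusted p = 0.00618). This difference passed in all 26 alternatives, with values from 1.67 to 2.09. Averaged over both ages, the dwarf minus wild type difference was -1.53 ± 0.16 (limma adjusted p = 6.11e-06).

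The same 4 groups can be read by age. Within dwarf mice, Alas2 averaged 1514 ± 166 at 22 months (SD, n = 3), against 602 ± 174 at 6 months (SD, n = 4), and no value overlapped. It rose 2.59-fold, a log2 fold change of 1.37 ± 0.22 (limma adjusted p = 0.00161). Within wild type mice it averaged 2314 ± 566 at 22 months (SD, n = 3), against 3274 ± 540.2 at 6 months (SD, n = 4), again without overlap. That log2 fold change, -0.52 ± 0.22, did not pass (limma adjusted p = 0.236). In order of level the groups ran 6-month wild type, 22-month wild type, 22-month dwarf and 6-month dwarf, and neighbouring groups did not overlap in any of the 3 steps. Beside these changes with age, 3 of 11 tested hepatocyte markers fell in dwarf mice, namely Alb (-0.43), Apoa1 (-0.50) and Tat (-0.70). So did 1 of 11 macrophage markers, Cd14 (-0.66), and 1 of 6 endothelial markers, Stab1 (-0.68). Their limma adjusted p ran from 0.0348 to 0.0462, and of all tested probe sets 16.5% passed. The list medians were -0.12, -0.08 and -0.44, beside -0.09 over all tested probe sets. Each of these markers lost its call with the 18S signal as a covariate (adjusted p = 0.106 to 0.268). In wild type mice 1 of 11 macrophage markers, Lyz2 (0.75), and 1 of 5 lymphocyte markers, Jchain of plasma cells (1.07), rose with age. Their adjusted p was 0.0391 and 0.0282, and of all tested probe sets 2.49% passed. Both lost the call with the 18S signal as a covariate (adjusted p = 0.285 and 0.333). The part of these markers in the Alas2 values was not tested. The rise with age in dwarf mice kept its direction but lost its call with the 18S signal as a covariate (1.25, adjusted p = 0.0508) or with the 3′ to 5′ ratio as one (1.04, adjusted p = 0.116).

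**Figure D1:**
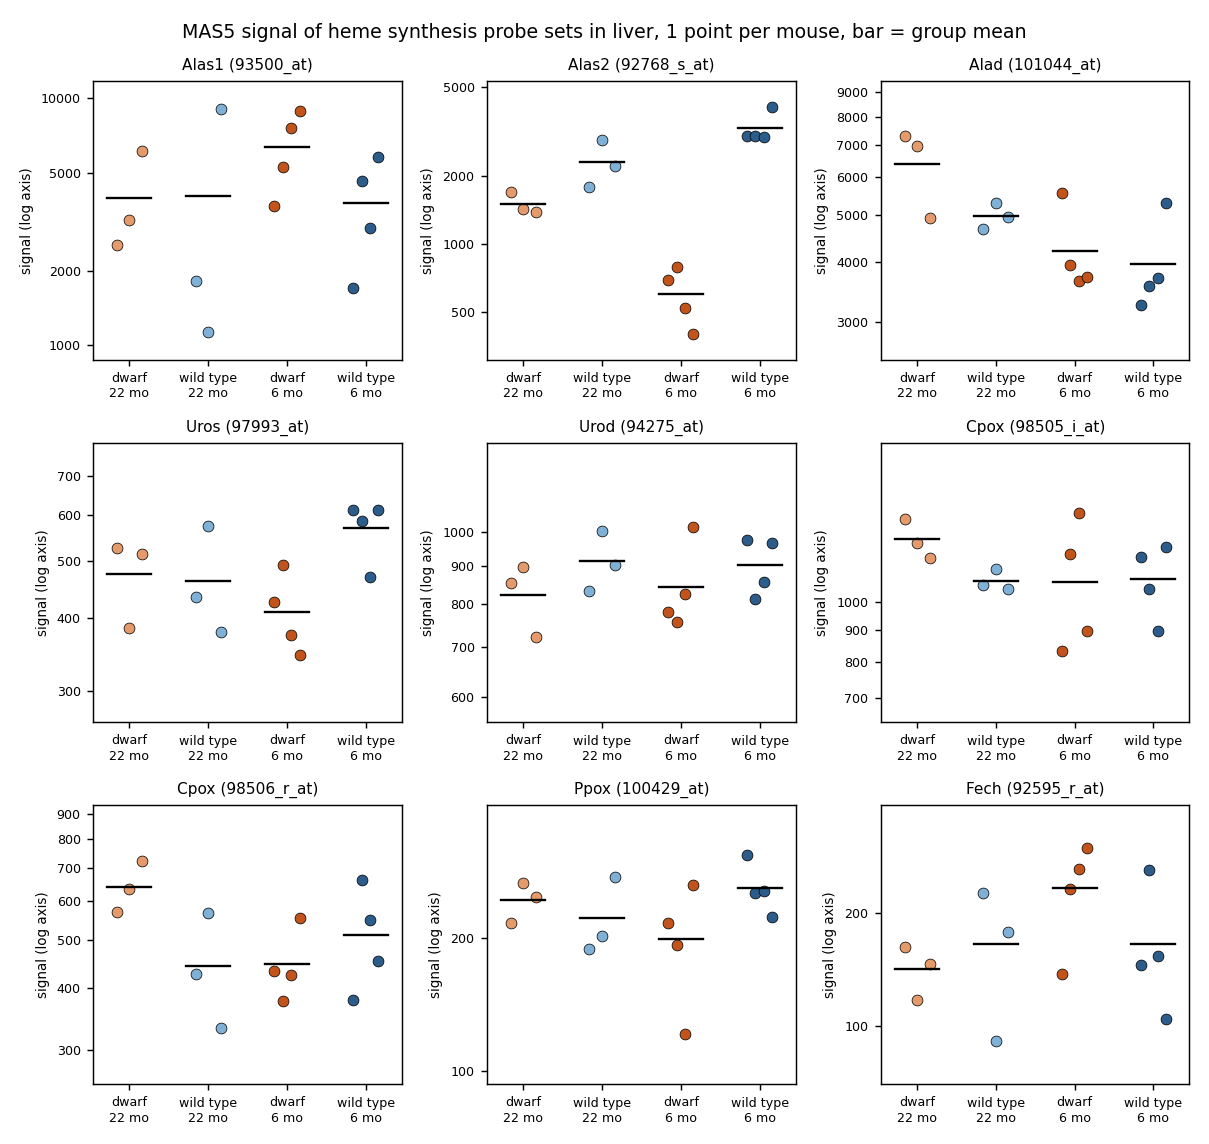
Signal of the 9 tested heme synthesis probe sets on a log axis, 1 panel per probe set and 1 point per mouse, with the arithmetic mean of each group as a bar (3 mice per group at 22 months, 4 at 6 months). In the Alas2 panel the 6-month dwarf mice sit between 400.1 and 792, below every other mouse, while the Alas1 panel shows wide scatter within all groups.

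Alas2 in a whole liver may come from red cell precursors, reticulocytes or blood as well as from hepatocytes, so erythroid markers were read beside it. In such bulk tissue fewer cells of a type and less RNA per cell cannot be told apart. Of 28 listed erythroid genes, 18 were on the array and 13 were tested. At 6 months the median log2 fold change of the 13 was 0.17, beside 0.10 over all tested probe sets. Of them 1 passed as higher and none as lower, beside 13.3% of all tested probe sets in either direction. The 1 was Ank1, the ankyrin of the red cell membrane (log2 fold change 0.55, limma adjusted p = 0.0323), which lost its call in 8 of 27 alternatives, among them leaving out dwarf animal 85 or 87 or wild type animal 82 or 88 (adjusted p = 0.0785 to 0.0884). In the 22-month comparison and in both age comparisons none of the 13 passed. Of all tested probe sets 2.93% passed at 22 months, 16.5% with age in dwarf mice and 2.49% with age in wild type mice.

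Of the erythroid genes, the globins and the factors of the lineage were read by mouse. Hba-a1, an adult alpha globin gene, had 12738, 10736, 7165 and 7531 in the 6-month dwarf livers, against 12453, 13623, 6578 and 5385 in the 6-month wild type livers. The groups overlapped over nearly their whole range. Its log2 fold change was 0.07 ± 0.37 (95% interval -0.70 to 0.85, limma adjusted p = 0.912), and its sign turned under several alternatives. Hbb-b2, an adult beta globin gene, had 1612, 1861, 1208 and 1387 in the dwarf livers, against 3161.5, 3152.5, 1348 and 1252 in the wild type livers. Animals 82 and 84 of the wild type lay above every dwarf mouse, and animals 86 and 88 within the dwarf range (log2 fold change -0.44 ± 0.37, limma adjusted p = 0.464). The lowest value of the list at 6 months was that of Rhd, a blood group antigen of the red cell membrane (log2 fold change -1.11, limma adjusted p = 0.142), and at 22 months that of Nfe2, an erythroid and megakaryocyte factor (-1.11, adjusted p = 0.114). Both were named after their values were seen. Hbb-y, an embryonic beta globin gene, gave 0.77 ± 0.45 at 6 months and -0.35 ± 0.51 at 22 months (limma adjusted p = 0.264 and 0.905). Klf1, the Krüppel-like factor of erythroid cells, gave -0.29 ± 0.38 (adjusted p = 0.644), and no probe set of Gata1, the erythroid GATA factor, passed the filter. Within the wild type group, Hba-a1 and Hbb-b2 were high in animals 82 and 84 and low in 86 and 88. Alas2 was level in 82, 84 and 86 and highest in 88, the mouse with the lowest Hba-a1. The array of animal 88 also had the lowest actin 3′ to 5′ ratio (1.16) and the highest 18S signal (163) of its group. Their part in these values was not tested.

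The summed signal of the 18 erythroid markers was 13629 to 19202 in 6-month dwarf livers and 10813 to 21006 in 6-month wild type livers. Without Hba-a1 and Hbb-b2 the sum was 4852 to 5403 in dwarf and 4004 to 4622.5 in wild type livers. The dwarf group was thus the higher on the deposited scale. The array median also averaged higher in 6-month dwarf livers, 203.6 against 177.4 in 6-month wild type livers. Its part in the sum was not tested. At 22 months the full sum was 13163 to 21249 in dwarf and 7920.2 to 17918 in wild type livers, and without that pair 3746 to 3999.6 in dwarf and 2989.6 to 3681 in wild type livers. At that age Hba-a1 (0.82 ± 0.42, limma adjusted p = 0.454), Hbb-b2 (0.70 ± 0.43, 0.574) and Klf1 (1.21 ± 0.44, 0.2) had positive differences that did not pass. Klf1 had 325, 331 and 342 in 22-month dwarf livers, against 187, 44.8 and 289.7 in 22-month wild type livers. Of the 18, 1 marker was at the floor on all arrays of each 6-month group. Of the 13 tested markers 10 had a positive and 3 a negative log2 fold change at 6 months. The negative ones were Rhd (-1.11), Hbb-b2 and Klf1, and none passed, a count of 0 where 6.95% of all tested probe sets passed as lower. The part of the erythroid markers in the Alas2 differences was not tested.

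**Figure D2:**
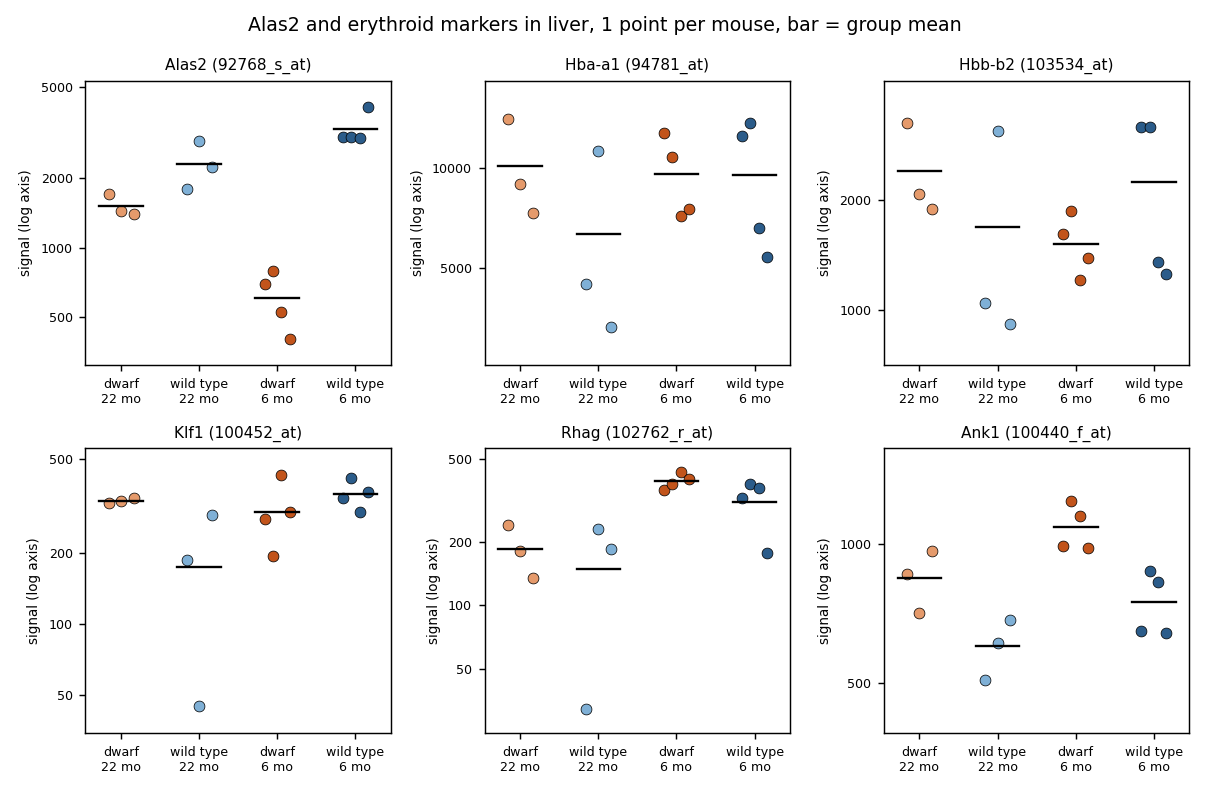
Signal of Alas2 and 5 erythroid markers on a log axis, 1 point per mouse, with the group mean as a bar. Rhag was chosen for the plot after its values were seen. The 6-month dwarf and wild type mice are apart for Alas2 and mixed for Hba-a1, Hbb-b2 and Klf1.

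Alas1, the housekeeping enzyme of the same step, showed the widest spread among the members. At 6 months its signal was 3671, 5279.5, 7553 and 8844 in dwarf livers, against 1703, 4599, 2968.5 and 5772 in wild type livers. The groups overlapped, and the difference of 0.82 ± 0.53 on the log2 scale did not pass (95% interval -0.31 to 1.94, limma adjusted p = 0.323). At 22 months it had 2544, 3218 and 6092 in dwarf livers, against 1816, 1131 and 9051 in wild type livers. The wild type values spanned 8.01-fold between mice of the same group. That difference was 0.47 ± 0.61 (95% interval -0.83 to 1.78, limma adjusted p = 0.884). The 22 minus 6 month differences were -0.70 ± 0.57 in dwarf and -0.36 ± 0.57 in wild type mice (limma adjusted p = 0.417 and 0.796). The difference seen for Alas2 at 6 months lies outside the 6-month interval of Alas1.

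The pooled spread within groups put a number on this. For Alas1 the within-group SD was 0.93 on the log2 scale, larger than that of 98.5% of the tested probe sets, whose median was 0.31. For Alas2 it was 0.32, for Alad 0.27 and for Urod 0.16. The Alas1 value at 22 months turned on single wild type mice. Without animal 2 the difference was -0.14 (adjusted p = 0.992). Without animal 24 it was 1.36 (adjusted p = 0.237), and the average over both ages, 0.65 ± 0.41 with all mice (limma adjusted p = 0.363), became 1.09 and passed (adjusted p = 0.0377).

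The genes most like Alas1 over the 14 arrays, by Pearson correlation of log2 signal, were Gdap10 (0.907), Usp2 (0.875) and Nckap1l (0.851). Usp2, a deubiquitinase with a daily rhythm in mouse liver, spanned 47.5 to 1495 within the 22-month wild type group, with animal 2 lowest and animal 24 highest for both genes. Of 12 listed clock genes 11 were tested. None passed in the genotype or the age comparisons, beside 2.49% to 16.5% of all tested probe sets. Nr1d1, the clock repressor Rev-erb alpha, which acts on Alas1, had a log2 fold change of 0.09 ± 0.27 at 6 months and 0.47 ± 0.31 at 22 months (limma adjusted p = 0.857 and 0.625). Collection times were not given, and their part in the scatter was not tested.

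Beside 13.3% of all tested probe sets at 6 months and 2.93% at 22 months, 1 of 8 tested regulators of Alas1 passed between the genotypes. It was Nr1i3, the drug-sensing nuclear receptor CAR, and it passed at both ages. In its probe set of highest signal it had 6661.5, 6334 and 4946.5 in 22-month dwarf livers, against 1434, 2216 and 2095 in 22-month wild type livers. At 6 months the values were 4512, 6417, 5853 and 5443 in dwarf livers, against 2004, 2165, 2160.5 and 4433 in wild type livers. It rose 3.15-fold at 22 months (1.66 ± 0.26, limma adjusted p = 0.00118) and 2.17-fold at 6 months (1.12 ± 0.23, limma adjusted p = 0.00393). A second Nr1i3 probe set passed at both ages with similar values (1.43 at 22 months and 1.18 at 6 months). The remaining Nr1i3 probe set gave smaller values, which did not pass at 22 months (0.70, adjusted p = 0.0964) and passed narrowly at 6 months (0.57, adjusted p = 0.0489). Nr1i2, the related receptor PXR, missed the threshold at each age (adjusted p = 0.0866 at 22 months and 0.0564 at 6 months) and passed when averaged over both (0.83 ± 0.18, limma adjusted p = 0.0069). No Ppargc1a probe set passed the filter. At 6 months this coactivator, induced by fasting, had 108 to 269 in dwarf livers, against 57.2 to 84.9 in wild type livers. The wild type values lie close to the floor of 54.9, and the difference was not tested. Feeding state was not given.

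**Figure D3:**
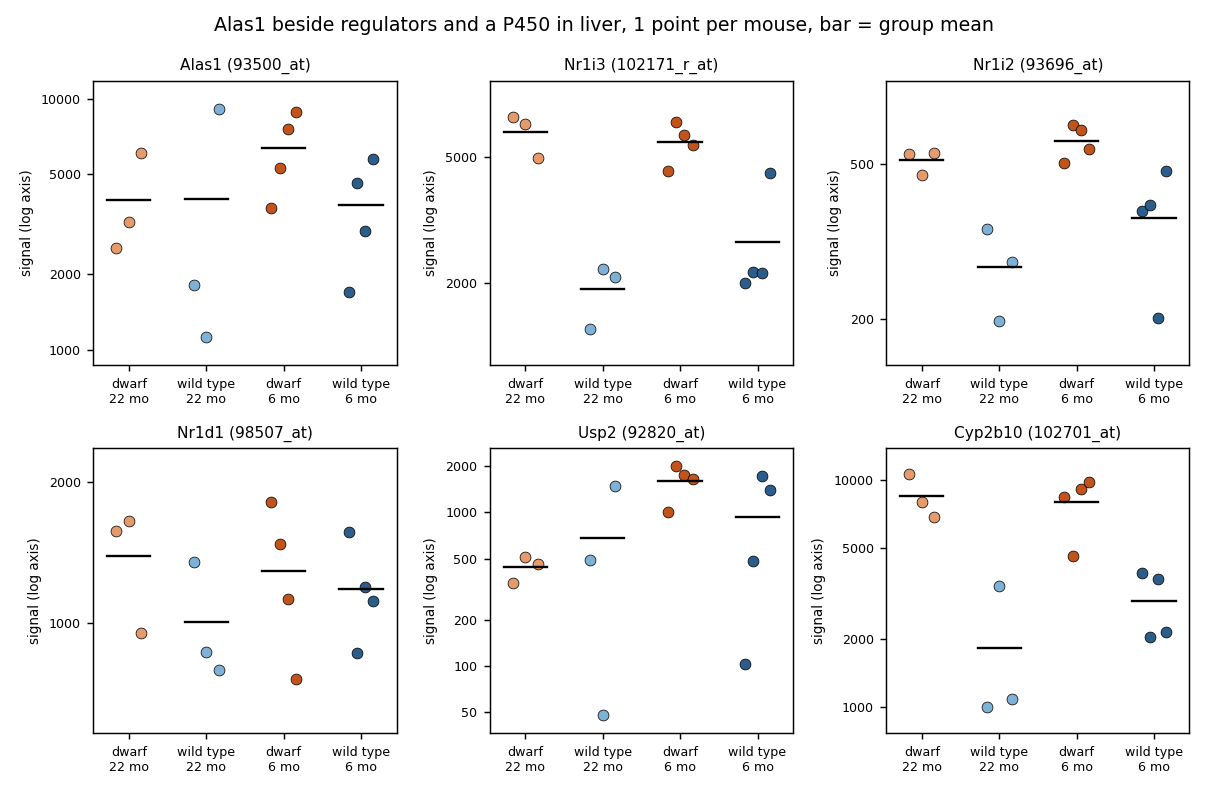
Signal of Alas1, of 3 of its regulators, of Usp2 and of the P450 gene Cyp2b10 on a log axis, 1 point per mouse, with the group mean as a bar. Cyp2b10, a target of CAR, was chosen for the plot after its values were seen. Nr1i3 separates dwarf from wild type mice at both ages while the Alas1 groups overlap.

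For the enzymes after the first step no difference between the genotypes passed at either age. Alad, which joins aminolevulinate molecules into the pyrrole porphobilinogen, had 5548, 3948, 3643 and 3726 in 6-month dwarf livers, against 3256, 3559, 3702 and 5294 in 6-month wild type livers. Each group held 1 high mouse, and the log2 difference of 0.10 ± 0.18 did not pass (limma adjusted p = 0.744). At 22 months Alad had 7297.5, 6936 and 4928 in dwarf livers, against 4686, 5285 and 4954.5 in wild type livers (0.34 ± 0.20, limma adjusted p = 0.556). Within dwarf mice Alad rose 1.52-fold with age in these values (0.60 ± 0.19, limma adjusted p = 0.0431), although 1 of the 6-month mice lay within the 22-month range. This call was lost in 16 of 27 alternatives, with adjusted p up to 0.174 when 1 mouse was left out and 0.400 with the 3′ to 5′ ratio as a covariate. Leaving out 1 mouse kept it only for dwarf animal 8 or 83 or wild type animal 82 or 88. In wild type mice the age difference was 0.36 ± 0.19 (limma adjusted p = 0.354).

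Uros, which closes the tetrapyrrole ring, had 427, 492, 374 and 346 in 6-month dwarf livers, against 611, 586, 469 and 613 in 6-month wild type livers. Only dwarf animal 85 and wild type animal 86 crossed. Its log2 difference of -0.48 ± 0.18 missed the threshold (95% interval -0.86 to -0.10, limma adjusted p = 0.0887), and passed when the arrays were set to a common median (-0.68, adjusted p = 0.0274) or quantile normalised (-0.58, adjusted p = 0.0451). At 22 months the value was 0.05 ± 0.21 (adjusted p = 0.981). Uros was the member most like Alas2 over the 14 arrays, with a Pearson correlation of 0.719.

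Urod, the decarboxylase that gives coproporphyrinogen, was the steadiest member. Its tested probe set ran from 722 to 897 in 22-month dwarf livers, from 834 to 1004 in 22-month wild type livers, from 757 to 1016 in 6-month dwarf livers and from 813 to 976 in 6-month wild type livers. The log2 difference between genotypes was -0.15 ± 0.16 at 22 months (95% interval -0.49 to 0.19) and -0.10 ± 0.14 at 6 months (95% interval -0.40 to 0.19). Its second probe set was mostly near the floor and was not tested.

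Cpox, which makes protoporphyrinogen from coproporphyrinogen, was read by a pair of probe sets. In the one whose name ends in r, dwarf livers at 22 months had 569.6, 633 and 723, against 428, 569 and 333 in wild type livers. The dwarf values were all higher, the nearest pair by about 1 unit of signal, and the log2 difference of 0.56 ± 0.24 did not pass (limma adjusted p = 0.307). The other probe set, whose name ends in i, had 1360, 1246 and 1178 in 22-month dwarf livers, against 1063, 1130 and 1047 in 22-month wild type livers (0.22 ± 0.19, limma adjusted p = 0.758). At 6 months the differences were -0.18 ± 0.21 and -0.04 ± 0.16, and both pairs of groups overlapped. With age in dwarf mice the probe set ending in r gave 0.53 ± 0.22, which did not pass (limma adjusted p = 0.110). It passed when the arrays were set to a common median (0.73, adjusted p = 0.0395). The probe set ending in i gave 0.26 ± 0.18 (adjusted p = 0.333). For the probe set ending in r, the difference of the genotype effect between ages was 0.74 ± 0.31 (adjusted p = 0.290).

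Ppox, which oxidises protoporphyrinogen, had 122 to 265 in 6-month dwarf livers, against 224 to 309 in 6-month wild type livers (-0.43 ± 0.24, limma adjusted p = 0.254). At 22 months it had 216.5 to 267 in dwarf livers, against 189 to 275 in wild type livers (0.15 ± 0.28, adjusted p = 0.946). Its other probe set was at or below the floor on all 14 arrays. Fech, the ferrochelatase that inserts iron into protoporphyrin, had 138, 232, 263 and 299 in 6-month dwarf livers, against 145, 261, 154 and 104 in 6-month wild type livers (0.51 ± 0.35, limma adjusted p = 0.356). At 22 months it had 162.5, 118 and 146 in dwarf livers, against 226, 91.4 and 179 in wild type livers. It exceeded the filter level of 184.8 on 5 arrays, 3 of them 6-month dwarf, so its values lie close to that limit.

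**Figure D4:**
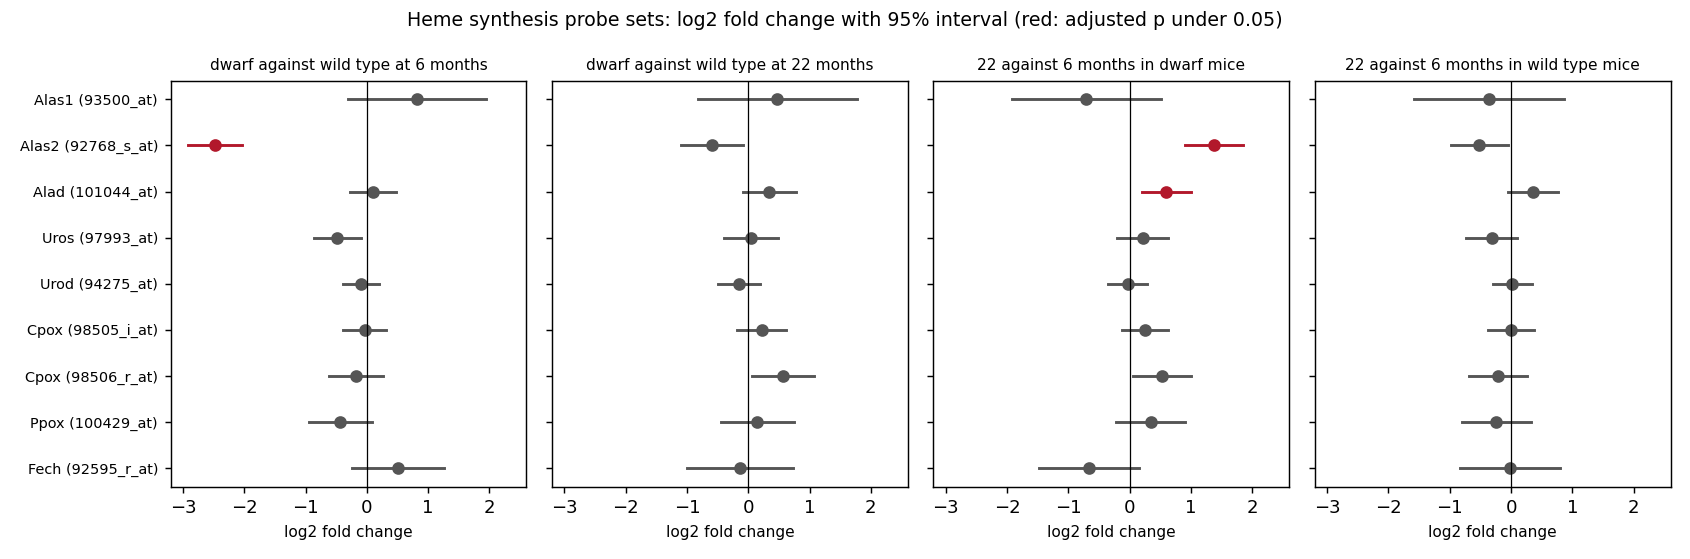
Log2 fold change of the 9 tested heme synthesis probe sets in each of the 4 comparisons, with points as estimates and lines as 95% intervals; red marks an adjusted p under 0.05. Alas2 stands alone at -2.48 in the dwarf against wild type comparison at 6 months, and red otherwise marks Alas2 and Alad in the comparison of ages within dwarf mice.

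Over the 9 tested probe sets, 0 passed as higher and 1 as lower between the genotypes at 6 months, beside 13.3% of all tested probe sets passing in either direction and 6.95% as lower. A further member probe set had an unadjusted p under 0.05. At 22 months none of the 9 passed in limma, beside 2.93%, with 2 at an unadjusted p under 0.05. For 22 against 6 months, 2 passed as higher in dwarf mice, beside 16.5% in either direction and 7.94% as higher, and none in wild type mice, beside 2.49%, with 1 at an unadjusted p under 0.05. The difference of the genotype effect between ages passed for 1 as higher, beside 2.19% in either direction and 1.54% as higher. The average over both ages passed for 1 as lower, beside 10.3% in either direction and 5.62% as lower. Groups did not overlap between genotypes for 1 of the 9 at 6 months, which was lower, beside 17.1% in either direction and 7.8% as lower. At 22 months they did not overlap for 2 that were higher and 1 that was lower, beside 21.8% in either direction, 10.3% as higher and 11.5% as lower. Between the ages they did not overlap for 2 that were higher in dwarf mice, beside 29.1% in either direction and 12.6% as higher, and for 1 that was lower in wild type mice, beside 15.9% and 7.73%. The median log2 fold change of the 9 was -0.10 at 6 months and 0.15 at 22 months, beside 0.10 and 0.01 over all tested probe sets.

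The genes most like Alas2 over the 14 arrays were Nit2 (Pearson correlation 0.967), Adipor2 (0.961) and Wfdc21 (0.953). These points share the same 4 groups of mice. Nit2, an omega-amidase, had 632, 648, 507 and 427 in 6-month dwarf livers, against 1409, 1119.8, 1211 and 1403 in 6-month wild type livers. Adipor2, an adiponectin receptor, had 1832 to 3484 in 6-month dwarf livers, against 7147 to 8647 in 6-month wild type livers. Wfdc21 had 78.2 to 196 in 6-month dwarf livers, against 13104 to 19404 in 6-month wild type livers. At 22 months it had 1959 to 3416 in dwarf livers, against 13112 to 19086 in wild type livers. For Alad the most alike were Ivd (0.927), Col18a1 (0.912) and Stard10 (0.898). For Uros they were Pnkd (0.847), Tm2d2 (0.847) and Lgalsl (0.839), and for Urod Prpf6 (0.857), Dtnb (0.781) and Cyp3a13 (0.742). For the Cpox probe set ending in i they were Rpusd4 (0.839), Ceacam2 (0.822) and Ap1g2 (0.765), and these do not stand for the other Cpox probe set, which correlated with it at 0.018. Ppox was most like Riok3 (0.889), Nat2 (0.867) and Mapkapk5 (0.849), and Fech most like Ptch1 (0.839), Septin10 (0.833) and Bag2 (0.828).

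Of 10 tested genes for the supply of glycine and succinyl-CoA, 1 rose, 3 fell and 6 did not pass at 6 months, beside 13.3% of all tested probe sets. Their median log2 fold change was -0.29. Dlst, a subunit of the succinyl-CoA producing oxoglutarate dehydrogenase complex, had 979, 752, 943 and 846 in dwarf livers, against 1457, 1223, 1378 and 1955 in wild type livers (-0.76 ± 0.15, limma adjusted p = 0.00323), while a second Dlst probe set overlapped between the groups. Shmt1, which makes glycine from serine, fell (-0.63 ± 0.14, adjusted p = 0.00755), as did Sucla2, a subunit of succinyl-CoA synthetase (-0.58 ± 0.14, adjusted p = 0.0104), while Ogdh, another subunit of the Dlst complex, rose (0.67 ± 0.17, adjusted p = 0.0158). Ogdh lost its call without dwarf animal 89 (adjusted p = 0.0526). At 22 months only Gldc, of the glycine cleavage system, passed, as higher (1.24 ± 0.29, adjusted p = 0.0278), beside 2.93% of all tested probe sets. It lost that call without dwarf animal 3, 4 or 8 or wild type animal 1 or 24 (adjusted p = 0.078 to 0.151). With age in dwarf mice 3 of the 10 rose, Gldc (1.69 ± 0.27), Dlst (1.09 ± 0.16) and Shmt1 (0.91 ± 0.15), with adjusted p from 0.0011 to 0.00198. Of all tested probe sets 16.5% passed there in either direction and 7.94% as higher. Each of the 3 missed the threshold with the 3′ to 5′ ratio as a covariate (0.0904 to 0.113). The genotype effect on Dlst differed between the ages (1.29 ± 0.23, limma adjusted p = 0.00939), with the call kept in all 26 alternatives. Gldc, Abcg2 and Cyb5b passed that test too, with differences of 1.34 to 1.59 and adjusted p from 0.0351 to 0.0434, and lost the call in 13, 15 and 16 of the 26. Of all tested probe sets 2.19% passed that test, and these 4 genes were chosen for it after their values were seen.

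Of 8 tested genes for heme and porphyrin binding and transport, none rose and 2 fell at 6 months. Of all tested probe sets 13.3% passed. Abcg2, a porphyrin exporter, had 423, 540.1, 407 and 878 in dwarf livers, against 1727, 1510.3, 1575 and 1220.2 in wild type livers. It fell 2.80-fold (-1.48 ± 0.20, limma adjusted p = 0.000142) with no overlap. Pgrmc1, a heme-binding membrane protein, fell by 0.44 on the log2 scale (adjusted p = 0.0208), a call lost without dwarf animal 87 or wild type animal 84 or 86 (adjusted p = 0.0544 to 0.0646). At 22 months none of the 8 passed in limma, beside 2.93% of all tested probe sets. Of 8 tested iron genes, Hfe, a regulator of iron sensing, fell 2.33-fold at 6 months (-1.22 ± 0.19, adjusted p = 0.000368), with 235.5 to 369 in dwarf livers, against 638 to 826 in wild type livers. It rose with age in dwarf mice (0.96 ± 0.20, adjusted p = 0.0068), the 1 of the 8 to pass there, beside 16.5% of all tested probe sets. That call was lost with the 18S signal (0.178) or the 3′ to 5′ ratio (0.216) as a covariate. Hamp, which encodes the iron hormone hepcidin, fell at 6 months (-1.05 ± 0.33, adjusted p = 0.0481), but lost the call in 13 of 27 alternatives, 10 of them leaving out 1 mouse (adjusted p up to 0.149 without dwarf animal 87). Tfrc, the transferrin receptor, did not pass (0.07 ± 0.32 at 6 months, adjusted p = 0.905).

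On the side of heme breakdown, none of 3 tested genes passed between the genotypes. Of all tested probe sets 13.3% passed at 6 months and 2.93% at 22 months. Hmox1, the inducible heme oxygenase, had 628, 714.5 and 848 in 22-month dwarf livers, against 1017, 1315, 1591 and 949.8 in 6-month dwarf livers. It fell with age in dwarf mice (-0.72 ± 0.22, limma adjusted p = 0.0342), as the 1 of the 3 to pass, beside 16.5% of all tested probe sets. That call was lost in 9 of 27 alternatives, among them without dwarf animal 3, 4, 85 or 87 (adjusted p = 0.0746 to 0.14). In wild type mice the Hmox1 age difference was -0.54 ± 0.22 and did not pass (adjusted p = 0.206). Nor did the difference of its genotype effect between ages (-0.18 ± 0.31, adjusted p = 0.837). None of 4 tested genes that regulate the heme response passed in any of the 4 comparisons, beside 2.49% to 16.5% of all tested probe sets.

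Among the users of heme, cytochrome P450s changed in both directions. Of 26 tested, 13 rose and 4 fell between the genotypes at 6 months, beside 13.3% of all tested probe sets, and 10 rose and 2 fell at 22 months, beside 2.93%. With the arrays at a common median 5 of the 13 lost their call at 6 months, namely Cyp1a2, Cyp2c29, Cyp2d26, Cyp2e1 and Cyp4b1 (adjusted p = 0.0712 to 0.367), and at 22 months 1 of the 10 did, Cyp3a16 (0.0647). Their medians were 0.45 and 0.49, beside 0.10 and 0.01 over all tested probe sets. Cyp4a14, a fatty acid hydroxylase, rose 24.8-fold at 22 months and 6.97-fold at 6 months, and Cyp2b13, a form higher in female mice, rose 21.5-fold and 23.6-fold. In the difference of the genotype effect between ages 2 of the 26, Cyp3a25 and Cyp4a14, passed as higher. The lowest limma adjusted p was 0.0147, and of all tested probe sets 1.54% passed as higher. Cyp2f2 fell 4.22-fold at 22 months and 6.51-fold at 6 months, with limma adjusted p of 0.000199 and 1.25e-06. With age in dwarf mice 1 of the 26 rose, Cyp3a25, and 3 fell, Cyp2c38, Cyp2e1 and Cyp4b1, beside 16.5% of all tested probe sets. Each lost its call with the 3′ to 5′ ratio as a covariate (adjusted p = 0.123 to 0.414). In wild type mice 4 of the 26 fell with age, Cyp2c39, Cyp3a25, Cyp4a10 and Cyp4a14, beside 2.49% of all tested probe sets. Each lost its call with the 18S signal as a covariate (adjusted p = 0.0555 to 0.366). Of 9 other tested heme proteins, 2 rose and 2 fell at 6 months, beside 13.3% of all tested probe sets. Cyb5b, the cytochrome b5 of the outer mitochondrial membrane, had 2542, 2347, 1310.1 and 1164 in dwarf livers, against 3873, 3687.5, 3289 and 4307 in wild type livers (-1.12 ± 0.23, adjusted p = 0.00465). Cycs, the somatic cytochrome c, fell 1.88-fold (-0.91 ± 0.17, adjusted p = 0.00229). The other pair, Cyb5a and Sdhd, rose by 0.54 and 0.50 on the log2 scale, and neither passed with the arrays at a common median (adjusted p = 0.0744 and 0.205). With age in dwarf mice 2 of the 9 rose, Cyb5b and Cycs, and 1 fell, Sdhd, beside 16.5% of all tested probe sets. Each lost its call with the 18S signal as a covariate (adjusted p = 0.0552 to 0.252).

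**Figure D5:**
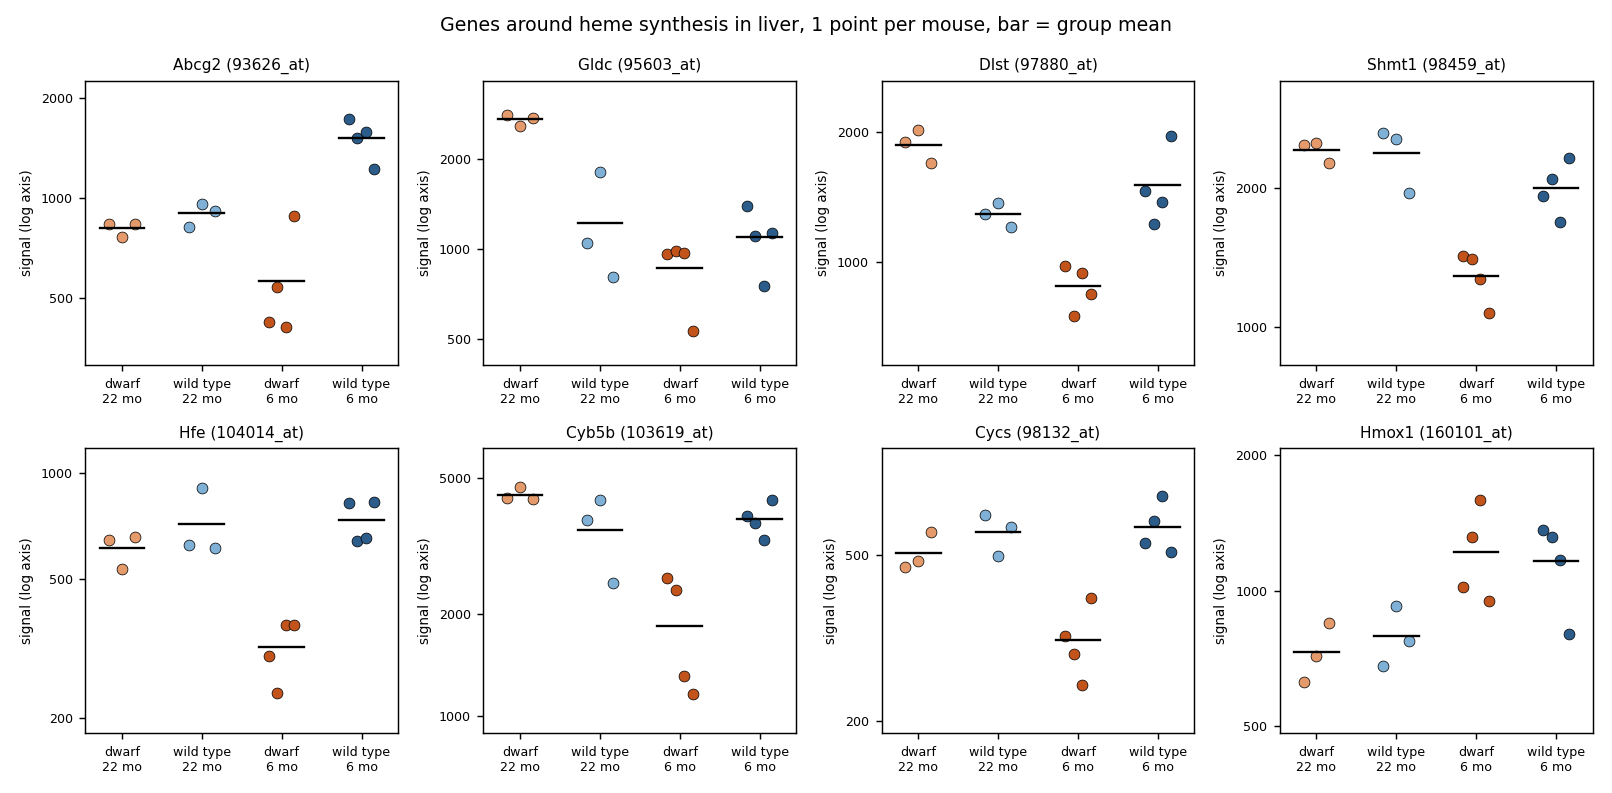
Signal of 8 genes of substrate supply, transport, iron, heme proteins and heme breakdown on a log axis, 1 point per mouse, with the group mean as a bar, chosen for the plot after their values were seen. In the Abcg2, Dlst, Hfe, Cyb5b and Cycs panels the 6-month dwarf mice lie below the 6-month wild type mice.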

How the data were processed

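Liver RNA of 14 mice was measured on Affymetrix mouse arrays of 12488 probe sets. The authors deposited 1 linear signal intensity per probe set and mouse; the submitters' processing notes name MAS5 as the tool. The trimmed mean (2% off each end) was 500.36 to 500.44 on every array, so the intensities were used without further scaling. The annotation gave 10855 probe sets 1 gene symbol and 396 several, which were not named. Values below the pooled 25th percentile (54.9) were set to it, log2 was taken, and probe sets above the pooled median (184.8) on at least 3 arrays were tested, leaving out 66 control probe sets. limma 3.58.1 in R 4.3.3 fitted 1 mean per group over all 14 arrays, with an intensity trend and Benjamini-Hochberg adjustment over 7227 probe sets in each comparison (threshold 0.05). Fold changes carry their standard error. The procedure was tested on simulated data. Alternatives were quantile and common-median scaling, other floors and filters, a pseudocount of 50, other variance settings, array weights, only the groups compared, 18S signal or 3′ to 5′ ratio as covariates, and each mouse left out in turn. Each p-value sets a difference between groups against the spread between these mice within groups. All member probe sets are named. A gene of another list is named where it passed in a genotype or age comparison, at most 4 per list and comparison by smallest p, read by its probe set of highest mean; Hba, Hbb, Klf1, Gata1, Nr1d1, Ppargc1a, Nr1i2, Nr1i3, Hmox1 and Tfrc are named whatever their values (Por, in the same rule, was not analysed here), and the 3 genes most correlated with each member. Genes that passed beyond those 4 per list and comparison are not all named. The members and lists were chosen with earlier results of these data known. Genes of the plots, and those named for the difference between ages, were chosen after their values were seen. Upstream sequences come from RefSeq (GRCm38.p6).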

Additional observations from a re-analysis of the deposited data

Results flagged for a closer look

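In 22 groups of 4 mice the highest and lowest signal of each member probe set were examined, and chance alone marks about 1 such group in 20. The gap of 1 mouse to the rest, as a share of the group's range, exceeded Dixon's 95% critical value in 4 of them. For Alas2, wild type animal 88 at 6 months had 4084.2, above 3 mice that were nearly equal. Its array had the lowest actin 3′ to 5′ ratio (1.16) and the highest 18S signal (163) of that group. For Alad, dwarf animal 83 at 6 months had 5548.3. For the untested Urod probe set, dwarf animal 87 had 419.0 and wild type animal 86 had 165.5 at 6 months. The genotype effect on Alas2 at 22 months minus that at 6 months was 1.89 on the log2 scale (limma adjusted p = 0.00618), with dwarf livers at 1396 to 1705 at 22 months, against 400.1 to 792 at 6 months.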

How the results depend on the processing

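No paired analysis was possible because no animal number occurs in more than 1 group. The depth of an array cannot be read from its signals. Probe sets at or near the floor, such as the untested one of Ppox, give only compressed differences. No array had the tested Fech or Ppox probe set at the floor. The call on Alas2 at 6 months and its difference between ages held in all alternatives. Setting the arrays to a common median moved the median of all log2 fold changes at 6 months to -0.10, against 0.10 as deposited, and the share of higher calls to 18.1%, against 47.8%. It moved that share to 79.2%, against 48.1%, for age in dwarf mice, to 25.4%, against 45.3%, for the average over ages, and to 89.3%, against 70.3%, for the difference between ages.

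Counts of called probe sets shifted as follows, and the causes were not tested. In some settings fewer mice or another set of tested probe sets entered. Between genotypes at 6 months, 962 became 630 with only the groups compared, and 711 to 1098 when 1 mouse was left out. At 22 months, 212 became 442 with array weights and 127 to 241 without 1 mouse. For age in dwarf mice, 1193 became 128 with the 18S signal and 51 with the 3′ to 5′ ratio as a covariate, and 521 to 1451 without 1 mouse. For age in wild type mice, 180 became 108 with the common median, 102 without the filter, 90 without the trend, 472 with array weights, 76 with only the groups compared and 5 with the 18S signal, and 60 to 457 without 1 mouse. For the difference between ages, 158 became 69 without the filter, 64 without the trend and 57 with the 3′ to 5′ ratio, and 48 to 169 without 1 mouse. The average over ages gave 535 to 807 without 1 mouse. The counts moved by over 1.5 times without dwarf animal 3 at 22 months between genotypes, and without dwarf animal 3, 4, 8 or 87 for age in dwarf mice. They did so without wild type animal 1, 2, 24, 84, 86 or 88 for age in wild type mice, of which only 88 raised the count, and without dwarf animal 3, 4, 8 or 87 or wild type animal 1, 24 or 82 for the difference between ages.

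Signs turned only where no call had been made, except for Alb. Under the common median, the log2 fold change was -0.10 for Alad and -0.12 for Hba-a1 between genotypes at 6 months, 0.17 for Urod with age in dwarf mice, 0.15 for Urod in the difference between ages, 0.0023 for Cpox (probe set i) with age in wild type mice and -0.0043 for it in the average. With quantile normalisation it was -0.015 for Urod with age in wild type mice and 0.014 for Alb with age in dwarf mice. With array weights Cpox (probe set i) gave 0.039 between genotypes at 6 months and 0.057 for age among wild type mice. With the 18S signal, age in wild type mice gave -0.16 for Urod and 0.49 for Fech. With the 3′ to 5′ ratio, Uros gave -0.0062 between genotypes at 22 months and -0.019 with age in dwarf mice, Cpox (probe set i) 0.12 between genotypes at 6 months and -0.10 with age in dwarf mice, and Hba-a1 -0.15 between genotypes at 6 months. With that ratio age in wild type mice gave -0.011 for Urod and 0.14 for Fech.

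Leaving out 1 mouse turned signs too. Alas1 ran from -0.14 to 1.36 between genotypes at 22 months, from -1.25 to 0.25 for age among wild type mice and from -0.96 to 0.54 in the difference between ages. Between genotypes at 6 months Alad ran from -0.042 to 0.25, Cpox (probe set i) from -0.17 to 0.078 and Hba-a1 from -0.16 to 0.28. At 22 months Uros ran from -0.087 to 0.21 and Fech from -0.51 to 0.14. Urod ran from -0.095 to 0.062 with age in dwarf mice, from -0.053 to 0.081 in wild type mice and from -0.11 to 0.045 in the difference. With age in wild type mice Cpox (probe set i) ran from -0.090 to 0.058 and Fech from -0.30 to 0.36. The average over ages of Fech ran from -0.00077 to 0.33.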
